A study of Homo sapiens with 6 samples.

Results

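The genes described here are 9 hypoxia-induced genes, ANGPTL4, CA9, VEGFA, ADM, NDRG1, EGLN3, ANKRD37, PDK1 and SLC2A1, and HIF1A, which encodes the oxygen-regulated transcription factor that drives such genes. They were taken by symbol from a table of 60605 genes, which lists all 10 of them, and the enzymes of glycolysis were left out. The 10 were chosen by their values in the shPUS1 against shControl contrast of these same 6 libraries, so their fold changes and adjusted p in that contrast are descriptions and support nothing. All 10 passed the filter on low counts, which left 14748 genes for testing.

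MDA-MB-231 is a human triple-negative breast cancer cell line. The study compared cells carrying a control hairpin (shControl) with cells carrying a hairpin against PUS1 (shPUS1), the gene of a pseudouridine synthase, to ask which transcripts differ when PUS1 is reduced. The hairpins against PUS1 were carried by a pLKO.1 lentiviral vector and infected cells were selected and kept with puromycin, while the vector of the control hairpin is not named, and 3 poly(A) RNA-seq libraries per group, labelled as biological replicates, were sequenced. The sources used here do not state which of the study's hairpins the sequenced cells carried or whether the replicates came from separate infections, and the labels name no low-oxygen treatment. In bulk RNA, fewer cells that express a gene and less of its RNA per cell cannot be told apart.

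Hypoxia-inducible factors are made of an oxygen-labile alpha subunit, such as HIF1A, and a stable partner, ARNT. With oxygen, prolyl hydroxylases of the EGLN family mark the alpha subunit for ubiquitination by the VHL complex and it is degraded; without oxygen it accumulates and binds short sites in its target genes. Much of this control acts on the HIF1A protein, which RNA-seq does not measure, and the targets serve blood vessel growth, pH balance, glucose uptake and a feedback on the factor itself.

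The core letters of a hypoxia response element are ACGTG or GCGTG. RefSeq starts on GRCh38.p14 were found for 8 of the 10 genes, with 10 entries in all, and the 250 bases before each start were searched on both strands. Either core was present in 6 of the 10 entries (60.0%), against 43.2% of all 35116 entries. ACGTG alone was present in 4 of the 10, those of ANGPTL4, CA9 and ANKRD37 and 1 of PDK1, against 18.5% of all entries. Stretches of 5 induced genes that hold a core are shown because they place the letters that the factor is known to bind beside genes of unlike values, from ANGPTL4 to ANKRD37. They are written along the gene's strand with the core in capitals, and a core on the opposite strand reads CACGT there.
ANGPTL4: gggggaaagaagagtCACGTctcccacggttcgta
CA9: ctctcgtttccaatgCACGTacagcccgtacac
ADM: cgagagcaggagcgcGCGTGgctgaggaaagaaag
PDK1: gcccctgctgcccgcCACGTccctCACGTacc
ANKRD37: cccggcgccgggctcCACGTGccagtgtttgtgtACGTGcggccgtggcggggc

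All 5 lie on plus strands, and those of ANGPTL4, PDK1 and ANKRD37 lie inside the span that the deposited table gives the gene. The ANGPTL4 stretch is chr19:8363906-8363940 and its core begins 234 bases before the RefSeq start. That of CA9 is chr9:35673895-35673927, with the core 18 bases before the start. The ADM stretch is chr11:10304957-10304991, with its core 101 bases before the start. Of the PDK1 stretch, chr2:172556058-172556089, the first core begins 17 and the second 8 bases before the start of 1 of its entries. In the ANKRD37 stretch, chr4:185396664-185396717, CACGTG reads the same on both strands, so the search counted it as 2 overlapping matches, and a further ACGTG follows. These are matches of letters, not measured binding sites.

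The library totals lay between 14241505 and 19625998 estimated counts. The control library shControl replicate 2 stood apart: its log2 CPM (counts scaled to a common library total) correlated across genes at 0.9613 and 0.9614 with the other shControl libraries, against 0.9878 between those and 0.993 to 0.9954 among the shPUS1 libraries. The fold changes of the 10 genes and of PUS1 are therefore given with all 6 libraries and without shControl replicate 2. Those of other genes are from all 6 libraries unless stated. The targeted gene PUS1 was at 2.57, 4.66 and 2.18 FPKM (fragments per kilobase of exon, scaled to the library total) in shControl replicates 1, 2 and 3 and at 1.13, 0.95 and 0.93 FPKM in shPUS1 replicates 1, 2 and 3. The groups did not overlap for PUS1 and shControl replicate 2 had the highest level, and the fit gave -1.62 on the log2 scale (standard error, SE, 0.32; edgeR adjusted p = 0.0462), and -1.19 (adjusted p = 0.00311) without that library. Leaving out shControl replicate 1 or shPUS1 replicate 1, 2 or 3 raised the PUS1 adjusted p to 0.0905, 0.208, 0.253 and 0.192. All 7 markers of the line averaged at least 1 FPKM over the libraries, with sums of 1370 to 1750 FPKM in shControl and 1020 to 1060 in shPUS1. The 7 luminal and receptor genes summed to 50.8 to 69.3 FPKM in shControl and 46.2 to 48.3 in shPUS1. Of these, ESR1, PGR and CDH1 were near 0, while 4 averaged at least 1 FPKM over the libraries. The 4 were KRT8 (42.6 FPKM), which made up most of the sums, ERBB2 (5.67), EPCAM (2.72) and GATA3 (1.91). The 5 markers of other cell types summed to 0.92 to 2.92 and 3.54 to 4.05 FPKM, mostly COL1A1 at 0.73 to 2.35 FPKM in shControl and 3.14 to 3.53 in shPUS1, while PTPRC was at 0.02 FPKM or less. The part of these sums in the results on the 10 genes was not tested.

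HIF1A had the highest level of the 10 genes, and in every shPUS1 library it was above every shControl library. In shControl replicates 1, 2 and 3 it was at 120.48, 60.83 and 134.25 FPKM, and in the shPUS1 libraries at 172.44, 173.93 and 172.63 FPKM. The shPUS1 libraries lay within 2 FPKM of one another, while shControl replicate 2 was lower than the mean of the other shControl libraries by a factor of 2.09. The log2 fold change was 0.75 (SE 0.25) with an edgeR adjusted p of 0.121, and 0.48 (SE 0.09, adjusted p = 0.0083) without shControl replicate 2. DESeq2 gave 0.76 and an adjusted p of 0.0372 with all 6 libraries. The edgeR adjusted p of HIF1A reached 0.34 when single libraries were left out. The gene (ENSG00000100644) spans 61695513 to 61748259 of chromosome 14. On the opposite strand it is overlapped by HIF1A-AS3, with 313, 91 and 247 counts in shControl and 262, 263 and 260 in shPUS1, a log2 fold change of 0.08 (adjusted p = 0.923). The strandedness of the counting is not given in the sources used here, so reads of a gene and of a partner on the other strand may not have been kept apart.

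The secreted products came from ANGPTL4, VEGFA and ADM. ANGPTL4 (ENSG00000167772, chromosome 19, 8363289 to 8374370) encodes angiopoietin-like 4, an inhibitor of lipoprotein lipase. Its levels in shControl replicates 1, 2 and 3 were 3.58, 4.24 and 2.33 FPKM, from 133, 206 and 82 counts. In shPUS1 they were 0.33, 0.51 and 0.59 FPKM, from 15, 23 and 25 counts. The groups were far apart, and among the induced genes only ANGPTL4 had its highest level in shControl replicate 2. The means, 3.38 ± 0.97 and 0.477 ± 0.133 FPKM (SD, n = 3 each), differed by a factor of 7.1, and the log2 fold change was -2.70 (SE 0.33, edgeR adjusted p = 0.0215). Without shControl replicate 2 it was -2.48 (SE 0.29, adjusted p = 0.00194). The adjusted p was 0.0681 without shControl replicate 1, and 0.147, 0.18 and 0.132 without shPUS1 replicates 1, 2 and 3.

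ADM (ENSG00000148926, chromosome 11, 10305073 to 10307397) encodes adrenomedullin, a vasodilator peptide. It was at 48.36, 24.28 and 39.02 FPKM in shControl and at 24.86, 21.30 and 25.16 FPKM in shPUS1, where shControl replicate 2 fell among the shPUS1 libraries. The ADM log2 fold change was -0.61 (SE 0.23, edgeR adjusted p = 0.147), and -0.84 (SE 0.13, adjusted p = 0.0052) without that library. VEGFA (ENSG00000112715, chromosome 6, 43770184 to 43786487) encodes the main growth factor of blood vessel endothelium. Its levels were 15.29, 6.68 and 15.46 FPKM in shControl against 12.01, 12.93 and 12.90 FPKM in shPUS1. The shPUS1 libraries thus lay between shControl replicate 2 and the other shControl libraries, and the VEGFA log2 fold change turned from 0.05 (SE 0.27, adjusted p = 0.922) to -0.24 (SE 0.09, adjusted p = 0.0816) when shControl replicate 2 was left out.

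CA9 (ENSG00000107159, chromosome 9, 35673918 to 35681159) encodes carbonic anhydrase IX, a membrane enzyme that helps cells keep their pH. In shControl replicates 1, 2 and 3 CA9 was at 7.46, 1.20 and 6.29 FPKM, and in shPUS1 replicates 1, 2 and 3 at 2.69, 2.10 and 1.56 FPKM. Its lowest level of all was in shControl replicate 2, 5.73 times below the mean of the other shControl libraries, while those were above every shPUS1 library. The log2 fold change was -1.16 (SE 0.57, edgeR adjusted p = 0.242) with all libraries and -1.62 (SE 0.22, adjusted p = 0.00364) without shControl replicate 2. ARHGEF39 overlaps CA9 by 1949 bases on the opposite strand, with 180.8, 271.9 and 205.3 counts in shControl and 132.9, 95.9 and 100.2 in shPUS1 (log2 fold change -1.10, adjusted p = 0.0418). CA9 itself had 180, 38 and 144 counts in shControl and 78.9, 62 and 43 in shPUS1. CA9 was thus lowest in shControl replicate 2, where ARHGEF39 had its highest count. These counts are not scaled to the library total. In FPKM, ARHGEF39 was at 1.88, 2.16 and 2.25 in shControl replicates 1, 2 and 3, highest in replicate 3.

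Glucose handling was represented by SLC2A1 and PDK1. SLC2A1 (ENSG00000117394, chromosome 1, 42925353 to 42958893) encodes the glucose transporter GLUT1. It was at 33.81, 29.76 and 41.02 FPKM in shControl and 28.18, 29.22 and 24.26 FPKM in shPUS1, which did not overlap although shControl replicate 2 and shPUS1 replicate 2 nearly met. The SLC2A1 log2 fold change was -0.33 (SE 0.14, edgeR adjusted p = 0.195), and -0.42 (SE 0.12, adjusted p = 0.0392) without shControl replicate 2. PDK1 (ENSG00000152256, chromosome 2, 172555373 to 172608669) encodes a kinase that inhibits pyruvate dehydrogenase. Its levels were 3.91, 2.62 and 4.72 FPKM in shControl and 2.02, 1.95 and 2.06 FPKM in shPUS1. All shPUS1 libraries were below all shControl libraries, with a PDK1 log2 fold change of -0.86 (SE 0.20, adjusted p = 0.059) and, without shControl replicate 2, -1.05 (SE 0.11, adjusted p = 0.00106). DESeq2 gave PDK1 an adjusted p of 0.00307 with all 6 libraries. The edgeR adjusted p of PDK1 reached 0.28 when single libraries were left out. A gene without a symbol (ENSG00000225205) overlaps PDK1 by 1224 bases on the opposite strand. It had 19.6 to 50.8 counts per library, with a log2 fold change of -0.44 (edgeR adjusted p = 0.446).

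EGLN3 (ENSG00000129521, chromosome 14, 33924227 to 34462774) encodes a prolyl hydroxylase that is itself induced by the factor it marks for degradation. It was at 1.20, 0.80 and 1.09 FPKM in shControl and 0.96, 0.93 and 0.95 FPKM in shPUS1, again with shControl replicate 2 below and the other shControl libraries above the shPUS1 libraries. The log2 fold change of EGLN3 was -0.09 (SE 0.20, edgeR adjusted p = 0.806), and -0.23 (SE 0.15, adjusted p = 0.297) without shControl replicate 2. The span listed for EGLN3 takes in SPTSSA on the same strand over 29453 bases. SPTSSA had 841 to 1450 counts per library, where EGLN3 had 114 to 133.

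NDRG1 and ANKRD37 are long-known hypoxia-induced genes, the first a regulator of growth and differentiation and the second an ankyrin repeat protein. NDRG1 (ENSG00000104419, chromosome 8, 133237175 to 133302022) was at 101.61, 18.90 and 93.78 FPKM in shControl and at 56.55, 58.06 and 58.07 FPKM in shPUS1. Its shControl libraries were thus the highest and the lowest of the 6, with shControl replicate 2 lower than the mean of its partners by a factor of 5.17. The NDRG1 log2 fold change was -0.27 (SE 0.50, edgeR adjusted p = 0.756), and -0.72 (SE 0.08, adjusted p = 0.0019) without shControl replicate 2. ANKRD37 (ENSG00000186352, chromosome 4, 185396021 to 185400628) had a low level of 1.75, 0.80 and 1.70 FPKM in shControl and 1.19, 1.31 and 1.12 FPKM in shPUS1. The pattern was that of EGLN3, with a log2 fold change of -0.19 (SE 0.32, adjusted p = 0.744), and -0.46 (SE 0.21, adjusted p = 0.161) without shControl replicate 2. ANKRD37 rested on 35.4 to 59.2 counts per library and is overlapped on the opposite strand by UFSP2, which had 288.7 to 411.8 counts.

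**Figure D1:**
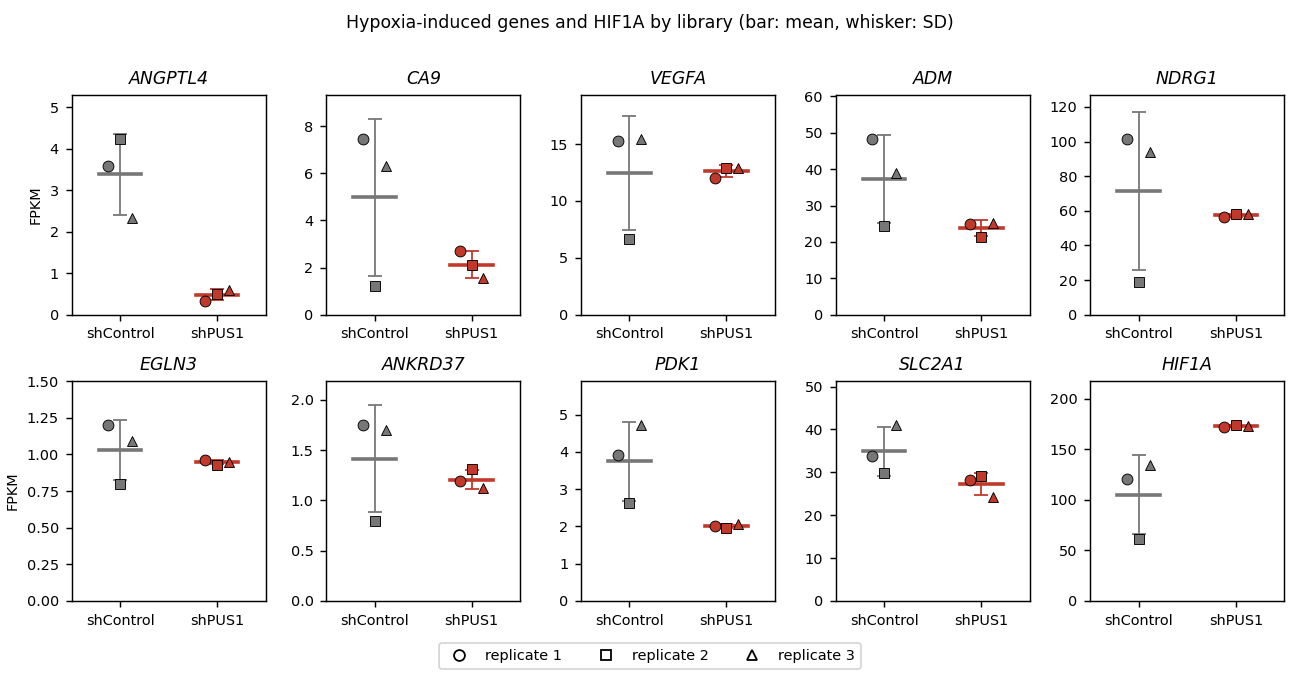
The level of each of the 10 genes in FPKM (vertical axes from 0, scaled per gene) in the 3 shControl and 3 shPUS1 libraries, with the symbol giving the replicate number, the wide bar the mean and the whisker the SD. ANGPTL4 separates the groups by a factor of 7.1 between the means, HIF1A is higher in all shPUS1 libraries, and the square of shControl replicate 2 is the lowest of 6 libraries for CA9, VEGFA, NDRG1, EGLN3, ANKRD37 and HIF1A.

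With all 6 libraries, 1 of the 9 induced genes, ANGPTL4, was called lower (adjusted p under 0.05 with a log2 fold change of 1 or more in size), where 0.475% of all genes tested were called lower. It was also the single one with an adjusted p under 0.05 alone, against 0.841% of all genes lower by that rule. HIF1A was not called higher, against 0.881% of all genes that were and 1.74% with an adjusted p under 0.05 alone. The FPKM of ANGPTL4, PDK1 and SLC2A1 were lower in shPUS1 without overlap, 3 of 9 against 19.4% of all genes, and HIF1A was higher without overlap, against 16.6% of all genes. The median log2 fold change of the 9 was -0.33, where that of all genes was -0.03. DESeq2 called the same number of the 9, 1, lower, where it called 1.61% of all genes lower. Its adjusted p for CA9, VEGFA, ADM, NDRG1, EGLN3, ANKRD37 and SLC2A1 lay between 0.0828 and 0.924.

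Without shControl replicate 2 the picture of the 9 genes was more uniform. All 9 were lower in every shPUS1 library than in shControl replicates 1 and 3, against 29.7% of all genes, and HIF1A was higher than in both, against 21.2% of all genes. In that fit 6 of the 9, ANGPTL4, CA9, ADM, NDRG1, PDK1 and SLC2A1, had a lower value with an adjusted p under 0.05, where 8.79% of 15130 genes did. ANGPTL4, CA9 and PDK1, 3 of the 9, were called lower with the fold of at least 1 on the log2 scale, against 1.56% of all genes. HIF1A had an adjusted p under 0.05 in the other direction, as did 9.8% of all genes, but did not reach that fold, which 1.56% of all genes did. The median log2 fold change of the 9 was then -0.72, against -0.02 for all genes. Since the rule for the 10 genes used this contrast with and without shControl replicate 2, these counts describe the choice.

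**Figure D2:**
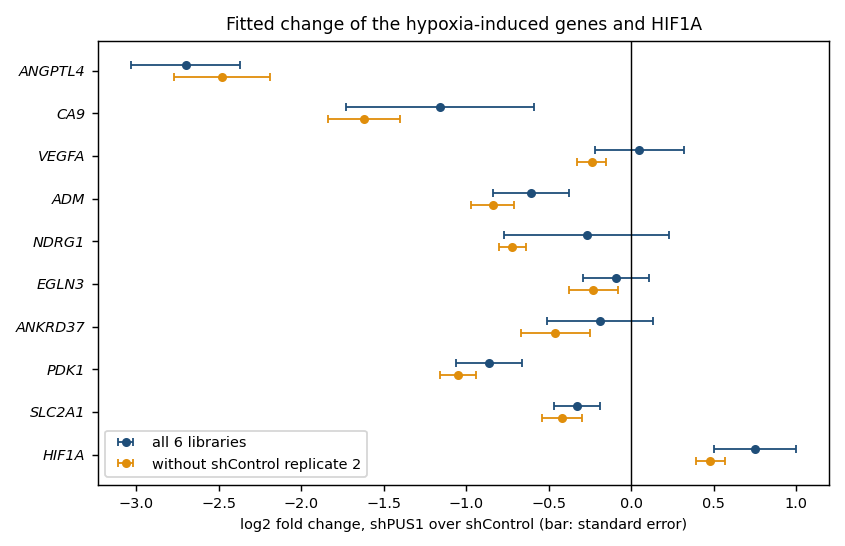
Fitted log2 fold change of shPUS1 over shControl (horizontal axis) for each of the 10 genes, with all 6 libraries and without shControl replicate 2, where bars are standard errors. Without that library CA9 goes from -1.16 to -1.62, NDRG1 from -0.27 to -0.72 and VEGFA from 0.05 to -0.24, while ANGPTL4 goes from -2.70 to -2.48 and HIF1A from 0.75 to 0.48.

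The 10 genes varied more among the shControl than among the shPUS1 libraries. The SD of log2(FPKM + 0.1) was larger in shControl for 10 of 10, with a median of 0.55 in shControl and 0.08 in shPUS1. The same direction held for 83.8% of all genes tested, whose medians were 0.30 and 0.12. Library shControl replicate 2 was the lowest of the 6 for 6 of the 10 genes, against 34.6% of all genes, and the highest for 1, against 30.8% of all genes. For NDRG1 the SD was 1.37 in shControl and 0.02 in shPUS1, and for CA9 it was 1.40 and 0.37.

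By mean FPKM, which is per length, the order in shControl was HIF1A (105), NDRG1 (71.4), ADM (37.2), SLC2A1 (34.9), VEGFA (12.5), CA9 (4.98), PDK1 (3.75), ANGPTL4 (3.38), ANKRD37 (1.42) and EGLN3 (1.03). Neighbours overlapped between libraries except SLC2A1 with VEGFA and ANGPTL4 with ANKRD37. In shPUS1 the order was kept except that SLC2A1 (27.2) stood above ADM (23.8), whose ranges overlapped, and ANGPTL4 (0.477) moved from rank 8 to rank 10. Of the neighbours in shPUS1, CA9 and PDK1 overlapped as well.

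**Figure D3:**
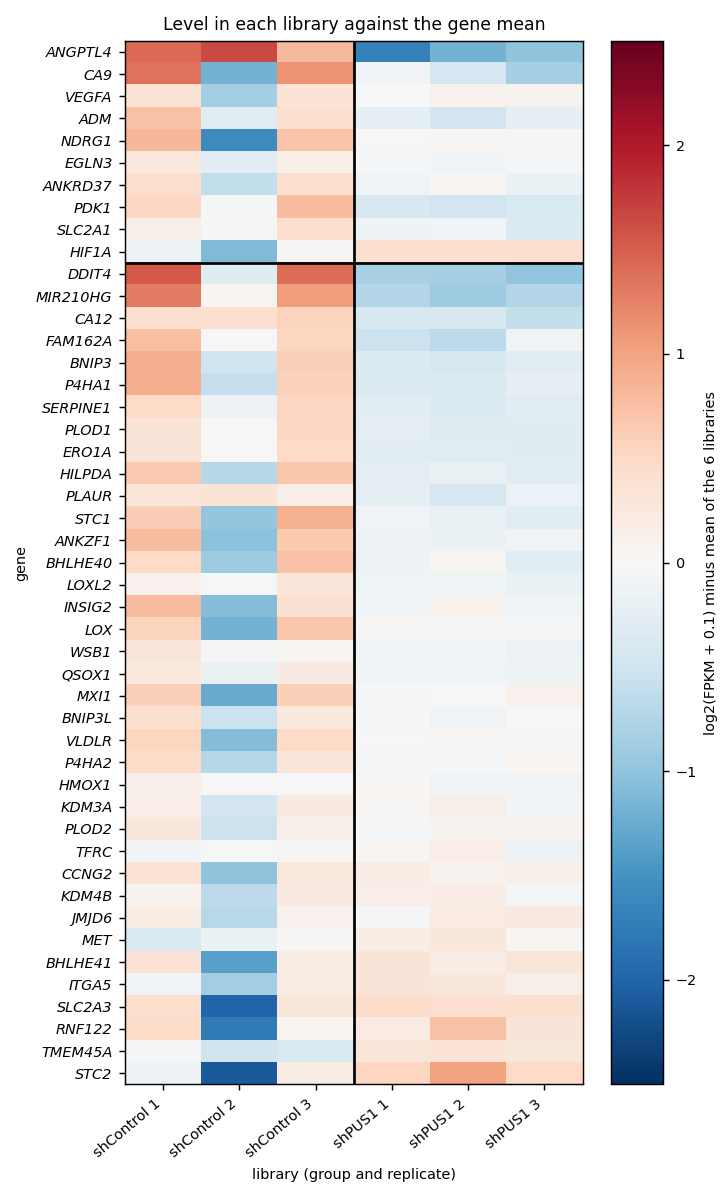
The level of the 10 genes (above the line) and of 37 other genes known as targets of hypoxia-inducible factors (below it) in each library, drawn in colour as log2(FPKM + 0.1) minus the gene's mean over the 6 libraries. The colour scale runs from -2.5 to 2.5 and the values from -2.10 to 1.65, and the column of shControl replicate 2 is the lowest for 24 of the 37 genes below the line.

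To see how the 10 genes compared with the rest of the programme, 40 other targets, again without glycolytic enzymes, were listed, of which 37 were tested. Of these, 1 was called with all 6 libraries, against 1.36% of all genes called in either direction and 0.475% called lower. It was MIR210HG, the host transcript of a hypoxia-induced microRNA. MIR210HG was at 4.80, 1.98 and 4.05 FPKM in shControl and 1.11, 0.99 and 1.11 FPKM in shPUS1, with no overlap. Its log2 fold change was -1.67 (SE 0.33, edgeR adjusted p = 0.046), and the adjusted p lay between 0.0624 and 0.253 when any library other than shControl replicate 2 was left out. CA12, a carbonic anhydrase of the same membrane type as CA9, fell from 10.13, 10.31 and 11.43 FPKM to 5.83, 5.84 and 5.09 FPKM. Here shControl replicate 2 was close to its partners, and the log2 fold change was -0.90 with it (SE 0.12, adjusted p = 0.0248) and without it (adjusted p = 0.0018). Of the other libraries, leaving out shControl replicate 1 or shPUS1 replicate 1, 2 or 3 took the CA12 adjusted p to 0.0681, 0.168, 0.208 and 0.163.

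The largest negative value of the list was that of DDIT4, an inhibitor of mTOR signalling, at 140.64, 39.33 and 128.60 FPKM in shControl and 27.66, 27.42 and 24.39 FPKM in shPUS1. The groups did not overlap, and its log2 fold change was -1.92 (SE 0.40, edgeR adjusted p = 0.0521), and -2.30 (adjusted p = 8.51e-05) without shControl replicate 2. After MIR210HG and CA12 came FAM162A, a mitochondrial protein, with -0.85 (adjusted p = 0.0812). On the positive side were SLC2A3, the glucose transporter GLUT3, with 0.57 (adjusted p = 0.496), RNF122 with 0.65 (adjusted p = 0.429), TMEM45A with 0.67 (adjusted p = 0.0979) and STC2, a stanniocalcin, with 1.23 (adjusted p = 0.224). STC2 was low, at 0.76, 0.12 and 0.98 FPKM in shControl and 1.27, 1.80 and 1.24 FPKM in shPUS1.

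Over the 37 targets, 2 were lower and 0 higher with an edgeR adjusted p under 0.05, against 0.841% and 1.74% of all genes. An unadjusted p under 0.05 was found for 11 of the 37 and for 25.5% of all genes. The median log2 fold change was -0.17, against -0.03 for all genes. DESeq2 called 2 of the 37 with the fold of at least 1 on the log2 scale, against 3.3% of all genes. Without shControl replicate 2, 21 were lower and 1, TMEM45A, was higher with an adjusted p under 0.05, against 8.79% and 9.8% of all genes. In that fit 5 were called lower, against 1.56% of all genes: the 3 of DDIT4, MIR210HG and FAM162A and, named after their values were seen, BNIP3 (-1.05, adjusted p = 0.00131) and P4HA1 (-1.02, adjusted p = 0.00204). The median was then -0.35, against -0.02 for all genes. BNIP3 acts in mitophagy and P4HA1 in collagen hydroxylation. This list was written with earlier results of these libraries known, and its libraries are those of the 10 genes.

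**Figure D4:**
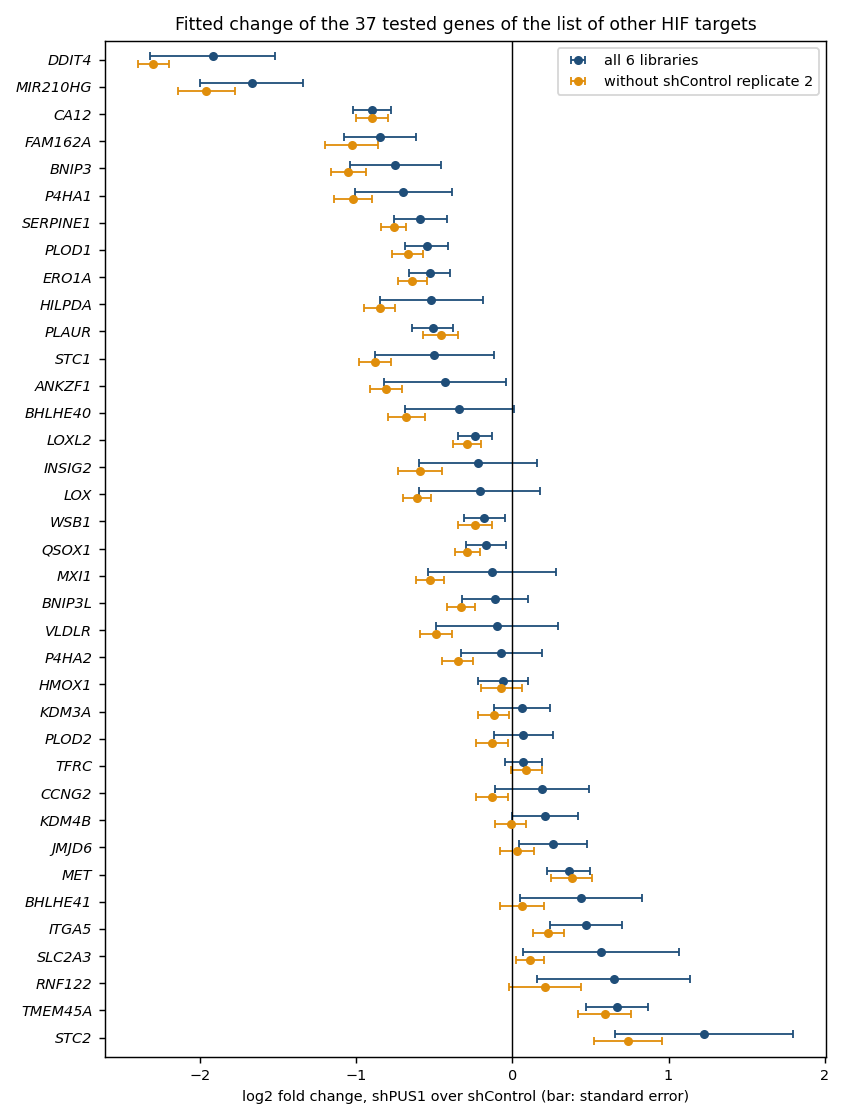
Fitted log2 fold change of shPUS1 over shControl (horizontal axis) for the 37 tested genes of the list of other targets, ordered by the fit with all 6 libraries, with standard errors as bars. Of the 37 values 24 are negative with all 6 libraries and 28 without shControl replicate 2, from DDIT4 at -1.92 and -2.30 to STC2 at 1.23 and 0.74.

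The machinery that sets the HIF level was measured as transcripts of 20 genes, of which 19 were tested. None of the 19 was called by edgeR or DESeq2 with all 6 libraries, and 4 had an unadjusted p under 0.05 by edgeR, as did 25.5% of all genes. EPAS1, the other main alpha subunit, was at 31.49, 12.98 and 40.16 FPKM in shControl and 41.66, 44.04 and 38.83 FPKM in shPUS1, with a log2 fold change of 0.59 (SE 0.33, adjusted p = 0.298). The low value was again that of shControl replicate 2, without which EPAS1 had 0.25 (edgeR adjusted p = 0.157). With all 6 libraries ARNT, the partner of both alpha subunits, had 0.24 (adjusted p = 0.442) and EGLN1 had -0.05 (adjusted p = 0.816). VHL had -0.21 (adjusted p = 0.359) and HIF1AN, an asparagine hydroxylase that blocks HIF activity, had 0.06 (adjusted p = 0.78). EGLN2, at 11.82, 11.62 and 10.54 FPKM in shControl and 14.72, 15.40 and 14.66 FPKM in shPUS1, did not overlap between groups. Its log2 fold change was 0.42 (SE 0.12, adjusted p = 0.0854), and 0.46 (adjusted p = 0.0161) without shControl replicate 2. HSP90AA1, a chaperone of HIF1A and named after its values were seen, was the single component with an adjusted p under 0.05. It was at 399.99, 391.45 and 311.15 FPKM in shControl and at 207.15, 198.13 and 231.92 FPKM in shPUS1 (log2 fold change -0.77, adjusted p = 0.0445), and its adjusted p reached 0.253 when single libraries were left out. The median of the 19 was 0.01, and 0.09 without shControl replicate 2, where 2 were lower and 2 higher with an adjusted p under 0.05, against 8.79% and 9.8% of all genes. For all genes the medians were -0.03 and -0.02.

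Paralogs and receptors of the 10 genes formed a list of 39, of which 27 were tested. None was called by edgeR with all 6 libraries, and 7 had an unadjusted p under 0.05, as did 25.5% of all genes. DESeq2 called 2 of the 27, against 3.3% of all genes. CA12 was lower and VEGFC, a growth factor of lymphatic vessels named after its values were seen, was higher by the adjusted p alone. VEGFC was at 12.74, 13.74 and 11.36 FPKM in shControl and 22.40, 23.59 and 26.73 FPKM in shPUS1, without overlap, with a log2 fold change of 0.96 (SE 0.14, edgeR adjusted p = 0.0319, up to 0.222 when single libraries were left out). Without shControl replicate 2 it was 1.05 (adjusted p = 0.00177), and VEGFC was the 1 gene of the list called higher. VEGFB and VEGFC tied as the most abundant relatives of VEGFA, each with a mean of 18.4 FPKM over the 6 libraries. With all 6 libraries VEGFB had a log2 fold change of 0.10 (edgeR adjusted p = 0.663). NDRG3 had a value within 0.01 of 0 (adjusted p = 0.99) and PDK2 had -0.12 (adjusted p = 0.67). RAMP1, a partner of the adrenomedullin receptor, had -0.05 (adjusted p = 0.876). ANGPTL2 had -0.34 (adjusted p = 0.499), and -0.65 (adjusted p = 0.00861) without shControl replicate 2. In that fit 6 of the 27 were lower and 4 higher with an adjusted p under 0.05, where 8.79% and 9.8% of all genes were.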

How the data were processed

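Poly(A) RNA of MDA-MB-231 cells was sequenced in 6 libraries, 3 per group. The authors aligned reads with HISAT2 and deposited, from HTSeq 0.6.1, estimated counts for each gene without normalization. The authors also deposited FPKM, these counts divided by exonic length and scaled to the library total. The build, annotation and strandedness are not given in the sources used here. Of 60605 identifiers, 58337 are in GENCODE on GRCh38. Of these, 99.9% overlap the GENCODE span and 74.7% have the same start and end. Between 29.76% and 31.79% of counts above 0 were not whole. A further column holds exonic lengths, and no per-sample column was left out.

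Counts were rounded, passed through filterByExpr, TMM-scaled and compared in edgeR 4.0.16 (quasi-likelihood test, prior count 2) in R 4.3.3, with Benjamini-Hochberg adjustment over all genes. A gene was called at an adjusted p under 0.05 with a log2 fold change of 1 or more in size. With shControl replicate 2 left out the filter was run again and 15130 genes were tested. On simulated counts the test recovered 170 of 200 genes changed by 1.5 and 197 of 200 changed by 3 on the log2 scale. These were among 14508 and 14547 genes. The simulation drew all libraries of a group alike, with no outlying library, and changed only genes above 1 CPM. With all 6 libraries only ANGPTL4 of the members had a change as large as 1.5. The recovery thus does not tell how often smaller changes are found in the real libraries. The depth limits the precision of low genes, and p-values measure the spread between these libraries only, since separate cultures are not stated.

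The members, lists and rules were chosen with earlier results of these data known. The rule named the 10 members, PUS1 and 6 components of the HIF pathway. It also named the 4 other targets with the largest values in each direction at a mean of at least 1 FPKM. Every gene called, the most abundant paralog or receptor of each member, and genes overlapping on the opposite strand were named as well. Opposite-strand genes with 6 counts or fewer in every library are not described. Alternatives were DESeq2 1.42.0, its size factors, no TMM, no filter, limma 3.58.1 on log2(FPKM + 1) and log2(FPKM + 0.1), a replicate block, no minimum fold and each library left out. The edgeR default prior count of 0.125 was added after the data had been seen. Promoter sequences are from RefSeq (GRCh38.p14), and 1 further stretch with a core is not reported here. Of the members' 100-base transcript stretches, 0.265% for SLC2A1 and 0.956% for HIF1A occurred in another gene, and 0 for the other 8 members. Figures were drawn with matplotlib 3.10.9 in Python 3.11.15.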

Additional observations from a re-analysis of the deposited data

How the results depend on the processing

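With all 6 libraries 200 genes were called. The number was 529 without the filter, 487 by DESeq2, 87, 112 and 20 by limma on log2(FPKM + 1), log2(FPKM + 0.1) and log2(FPKM + 1) without the filter, 380 without a minimum fold, and 0 to 472 with 1 library left out (the 0 being without shPUS1 replicate 3, where 2581 genes had an unadjusted p under 0.05 by edgeR). Of the 9 induced genes, 1 was called lower, against 0 by limma without the filter and 0 to 3 with single libraries left out. Of the other targets, 1 was called, against 0 without TMM and by limma in all 3 forms, 2 without the filter, by DESeq2 and without a minimum fold, and 0 to 5 with single libraries left out. Of the HIF components 0 were called, against 1 without a minimum fold. Of the paralogs and partners 0 were called, against 2 without the filter, by DESeq2 and without a minimum fold, and 0 to 1 with single libraries left out. The cause of these changes was not tested.

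Same-numbered libraries of the 2 groups were not treated as pairs in the main fit. Their residuals correlated across genes at -0.083, -0.056 and -0.282. With 3 libraries per group and shControl replicate 2 standing apart, these values cannot show whether the libraries were paired. With the replicate block 18 genes were called, 0 of the 9 induced genes (ANGPTL4 had an adjusted p of 0.0617) and 0 of the other targets, and the log2 fold change of NDRG1 was 0.01 and that of NDRG3 0.00.

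Over 30 named genes, 402 of 448 recomputed values kept their direction and stayed called or not called. A further 24 were no longer called, 6 were newly called and 16 changed sign. A call needs a log2 fold change of 1 or more in size, so smaller changes that crossed an adjusted p of 0.05 count as kept. Among them, the edgeR adjusted p of CA12 went from 0.0248 to 0.168 without shPUS1 replicate 1. That of HIF1A went from 0.121 to 0.0083 without shControl replicate 2. The 402 thus do not show that adjusted p values were stable. NDRG1 was at 0.02, 0.03 and 0.02 by limma on log2(FPKM + 1), log2(FPKM + 0.1) and without the filter. NDRG3 was at 0.00 by DESeq2 and with its size factors. With single libraries left out, VEGFA ran from -0.24 to 0.22, NDRG1 from -0.72 to 0.07, EGLN3 from -0.23 to 0.03, EGLN1 from -0.11 to 0.01, HIF1AN from -0.00 to 0.11, RAMP1 from -0.09 to 0.01 and NDRG3 from -0.09 to 0.06. The cause was not tested.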
